A study of Homo sapiens with 9 samples.

Results

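The genes described here encode the cytosolic translation initiation and elongation factors. They were chosen by a rule on names, set with earlier results of these data known. The rule took the rows of the deposited table whose symbol begins with EIF1 to EIF6 or with EEF1 or EEF2. The gene name had to begin "eukaryotic translation", without kinases and pseudogenes, which gave 55 of 18364 genes. The tumours had grown to the terminal stage in the brains of nude mice injected with LN229, an established human glioblastoma cell line. In 6 tumours the cells carried TAZ-4SA, known as an active TAZ whose Hippo kinase target serines are replaced by alanine, and in 3 tumours they carried the vector (EV). TAZ is a co-activator of transcription. The comparison addressed what active TAZ changes in glioblastoma gene expression. Nude mice lack a thymus and so most T cells but keep other host cells, and neither the promoter of the construct nor the tie between tumours and animals is given in the labels, so a p-value speaks only for the spread among these tumours, which may be technical.

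Protein synthesis begins when initiation factors load the small ribosomal subunit with an initiator tRNA, carry it to the capped end of an mRNA and let it scan to a start codon. eIF2 brings the tRNA, and eIF2B recharges eIF2 with GTP and is blocked when stress kinases phosphorylate eIF2. eIF3 is the scaffold of the small subunit, eIF4F binds the cap, eIF1, eIF1A and eIF5 read the start codon, and eIF5B joins the large subunit. eEF1 then delivers each aminoacyl-tRNA and eEF2 moves the ribosome along. In tumours, eIF4E is held in check by the 4E-BPs, which mTOR phosphorylates.

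The TAZ-4SA libraries held 3144861 to 31468135 recovered reads and the EV libraries 17314672 to 21576264. The TAZ-4SA libraries had 2990 to 7365 genes of the table at 0 reads, and the EV libraries 505 to 622. WWTR1, which encodes TAZ, stood at 331 ± 74.6 CPM in TAZ-4SA tumours (SD, n = 6), against 120 ± 3.17 CPM in EV tumours (SD, n = 3). CPM is the count scaled by the authors to a common library size. The exact two-sided permutation test on WWTR1 gave p = 0.02381, the smallest that the 84 splits of 9 tumours allow, and 0.07143 without any 1 EV tumour, where that is the smallest. The 9 glial and glioblastoma markers summed to 2434 to 3831 CPM in TAZ-4SA tumours and 3377 to 3740 CPM in EV tumours, with CD44, EGFR and SOX9 called higher and S100B and NES lower. Summed over 6 neuronal markers the level was 71.2 to 1348 CPM in TAZ-4SA tumours and 90.0 to 160 CPM in EV tumours, with 1 of 6, SYT1, called higher. The 5 oligodendrocyte markers summed to 8.52 to 320 CPM in TAZ-4SA tumours and 191 to 275 CPM in EV tumours, with MAG called lower. MOG and MOBP had 0 reads in every TAZ-4SA tumour, but averaged only 0.11 and 0.68 CPM in EV tumours and were not tested. Over the 5 microglia and macrophage markers in the table, the sums were 54.7 to 142 CPM in TAZ-4SA tumours. They were 15.9 to 25.6 CPM in EV tumours, so the groups did not overlap. Most of the sum in every tumour was CD68, and 1 of the 4 tested, CD68, was called higher. In TAZ-4SA tumour 1 CD68 alone had 141.8 CPM and the other markers of this list had 0 reads. PTPRC, ITGAM and CSF1R were not called, with log2 fold changes of 0.78, -1.77 and 0.66. The 7 endothelial and mural markers summed to 43.8 to 128 CPM in TAZ-4SA tumours and 57.0 to 139 CPM in EV tumours, with 0 of 3 tested called. The part of these cell types in any result below was not tested. In bulk tumours, fewer cells of a type and less RNA per cell cannot be told apart.

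Translation factors took 1.43% to 2.10% of the reads of a TAZ-4SA tumour and 1.80% to 2.06% of those of an EV tumour, so the group ranges overlapped. Of the 55 genes, 54 passed the filter of a mean of 1 CPM. In the limma fit over 15578 genes, 7 of them passed an adjusted p of 0.05 as higher in TAZ-4SA and 6 as lower, while 41 were not called. The higher share of 13% stood beside a background of 9.02% over all genes tested, and the lower share of 11.1% beside 13.3%. In either direction 24.1% of the factors were called against 22.4% of all genes, which is near the background. The higher genes were EIF3A, EIF5B, EIF5, EIF3J, EIF1AX, EIF2S1 and EIF4G2, and the lower genes were EIF2B4, EIF2B5, EIF3G, EEF1G, EIF3K and EIF3L. The median log2 fold change, TAZ-4SA minus EV, was -0.16 over the factors and -0.85 over all genes tested. With a pseudocount of 2 CPM these medians were -0.16 and -0.42, and with a minimum mean of 10 CPM they were -0.24 and -0.41. Among genes at 50 to 200 CPM, 22.7% of 22 factors and 34.4% of 3845 genes were called, with median log2 fold changes of 0.033 and -0.22. At 200 to 1000 CPM, 36.8% of 19 factors and 47.6% of 696 genes were called, with medians of -0.29 and -0.19, so the factors' median lay above that of all genes in the first class and below it in the second. Groups were apart for 19 of the 54 factors, or 35.2%, where the share over all genes tested was 32.0%.

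**Figure D1:**
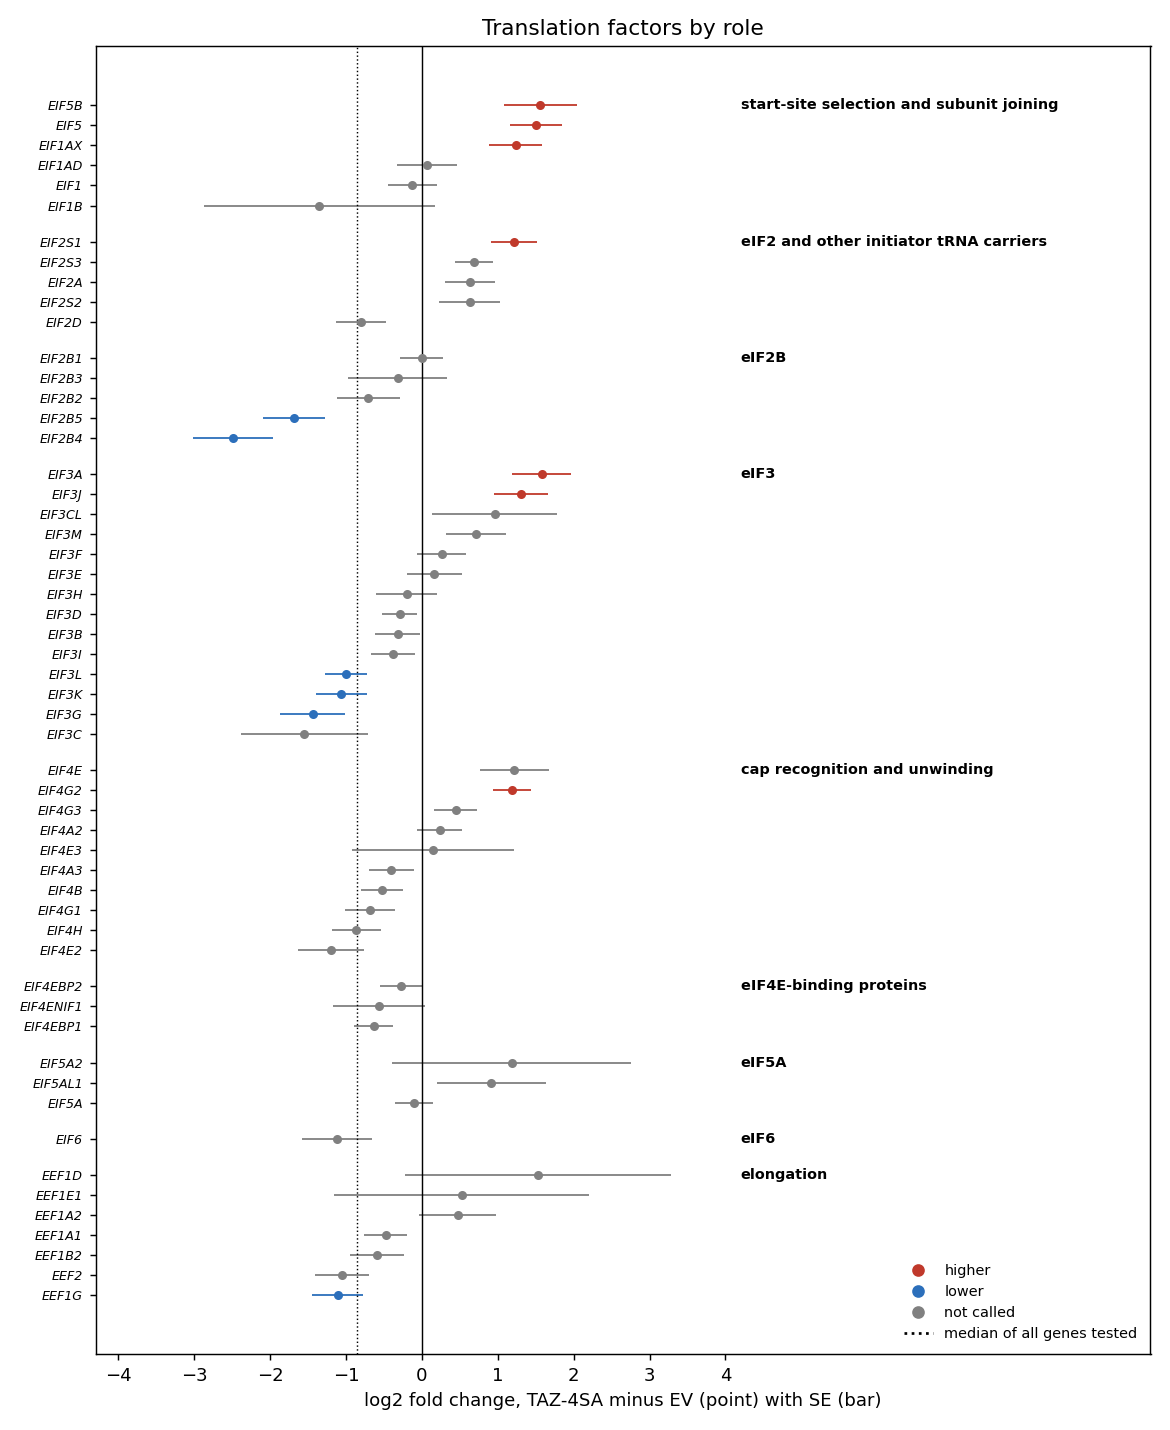
Each point is the log2 fold change (TAZ-4SA minus EV) of a translation factor gene from the limma fit and each bar its SE, grouped by role and ordered by value. Red points were called higher, blue points lower and grey points not called, and the dotted line is the median of all genes tested at -0.85. Calls of both directions fall inside eIF3, while none of the 5 eIF2B genes lies clearly above 0.

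The spread between tumours differed between the groups. The median SD of log2 CPM over the 54 factors was 0.59 in TAZ-4SA and 0.19 in EV. At 50 to 200 CPM it was 0.521 and 0.142 over 22 factors and 0.704 and 0.206 over 3845 genes. At 200 to 1000 CPM it was 0.494 and 0.229 over 19 factors and 0.538 and 0.183 over 696 genes. The wider spread in TAZ-4SA was thus not particular to the factors. Correlations of log2 CPM across the factors lay between 0.658 and 0.93 for pairs of TAZ-4SA tumours and between 0.980 and 0.994 for pairs of EV tumours. Over all genes tested they lay between 0.632 and 0.776 for TAZ-4SA and between 0.955 and 0.985 for EV. These are correlations across genes and have no test. The TAZ-4SA libraries also differed more in recovered reads, and the part of depth in the spread was not tested. Of the 13 called factors, 1, EIF4G2, was called in each of the 9 fits that left out 1 tumour. The others were lost in 1 to 7 of these fits, as given beside each gene, and no direction turned.

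Several factor genes start transcription at a C followed by a run of pyrimidines, the sequence known as a 5′ terminal oligopyrimidine (TOP) tract, through which mTOR is known to control the translation of ribosomal protein and elongation factor mRNAs. RefSeq start sites (GRCh38.p14) were found for 45 of the 55 genes. At 11 of them, or 24.4%, the first base was a C with at least 4 further C or T bases after it, read on the sense strand only, against 4.04% of 27305 genes with a start site in the same table. The sequences of 4 genes with a tract and 4 called genes without it are shown to let the starts be compared, from 20 bases before the start to the tenth base of the transcript, with the tract in capitals.

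EEF1A1 (chr6:73521023-73521052, minus strand): cagtagtcgccgtgaacgttCTTTTTCgca
EEF2 (chr19:3985454-3985483, minus strand): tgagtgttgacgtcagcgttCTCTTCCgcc
EIF3K (chr19:38619168-38619197, plus strand): gtcgtttccgtttccaccacCTCTTCCTgt
EIF2S3 (chrX:24054936-24054965, plus strand): cagccggggtgatttccttcCTCTTTTggc
EIF5 (chr14:103334217-103334246, plus strand): gcgcggcggcggcgttgttcagtcagagcg
EIF5B (chr2:99337369-99337398, plus strand): cgcttgcgcactgagaactcacaccatatg
EIF3J (chr15:44537127-44537156, plus strand): tgactcacctccgccgtgctaactcctcgc
EIF2B4 (chr2:27370329-27370358, minus strand): ggcggctccgtgaccacggcgggcggagcc

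Of the 11 factor genes with the tract, all tested, 0 were called higher and 1, EIF3K, lower, with a median log2 fold change of -0.29. Of the 33 tested genes whose start lacks it, 6 were higher and 3 lower, with a median of -0.27. EIF3A, EIF3G and EIF3L had no entry in the table. Over all genes tested, 51 were higher and 83 lower of 623 with the tract, with a median of -0.68, and 1094 were higher and 1449 lower of 11489 without it, with a median of -0.81. A match describes the letters at the annotated start and is not a measured start site.

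Of the 6 genes of start codon recognition and subunit joining, 3 were higher and 0 lower, beside 9.02% higher and 13.3% lower over all genes tested, and the group was not tested as a set. EIF5, the GTPase-activating protein of eIF2, had 220, 465 and 553 CPM as lowest, median and highest value in TAZ-4SA tumours, against 130, 106 and 219 CPM in EV tumours 1 to 3. TAZ-4SA tumour 3, the lowest of its group, lay just above EV tumour 3, the highest of its group, and the groups did not overlap. EIF5 rose by a log2 fold change of 1.503 ± 0.34 (SE; limma adjusted p = 0.007915), and it was not called without EV tumour 2 (limma adjusted p = 0.05679). Its gene lies on chromosome 14 from 103334237 to 103345025 (GRCh38). EIF5B, the GTPase that joins the ribosomal subunits, had 140, 548 and 757 CPM as lowest, median and highest in TAZ-4SA tumours, against 156, 166 and 103 CPM in EV tumours 1 to 3. TAZ-4SA tumour 5 lay among the EV tumours, and the other TAZ-4SA tumours lay above all of them. The log2 fold change of EIF5B was 1.56 ± 0.48 (limma adjusted p = 0.03617). It was not called without EV tumour 1, 2 or 3 or without TAZ-4SA tumour 1, 2, 4 or 6, with limma adjusted p between 0.06514 and 0.1383. EIF1AX, the X-linked gene of eIF1A, which works with eIF1 at the start codon, had 40.0, 73.3 and 86.5 CPM as lowest, median and highest in TAZ-4SA tumours, against 26.0, 26.1 and 31.1 CPM in EV tumours. Each of the 6 TAZ-4SA tumours was higher than each EV tumour. The log2 fold change was 1.23 ± 0.35 (limma adjusted p = 0.02491), and EIF1AX was not called without EV tumour 1, 2 or 3 (0.07018 to 0.1212).

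EIF1, the gatekeeper of start codon fidelity, was not called. Its level was 532 ± 160 CPM in TAZ-4SA tumours, against 598 ± 284 CPM in EV tumours, a log2 fold change of -0.12 ± 0.32 that turned to 0.10 after quantile normalization. EV tumour 3, at 927 CPM, carried the upper end of the EV range, and the fold change was 0.24 without it, and its sign also turned without TAZ-4SA tumour 3. EIF1AD, which encodes a protein with an eIF1A-like domain, was at 70.2 ± 27.2 and 62.5 ± 5.80 CPM. EIF1B, a paralog of EIF1, stood at 0.108 CPM in TAZ-4SA tumour 4 and between 21.0 and 77.1 CPM in the other TAZ-4SA tumours, against 36.1 to 82.9 CPM in EV.

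**Figure D2:**
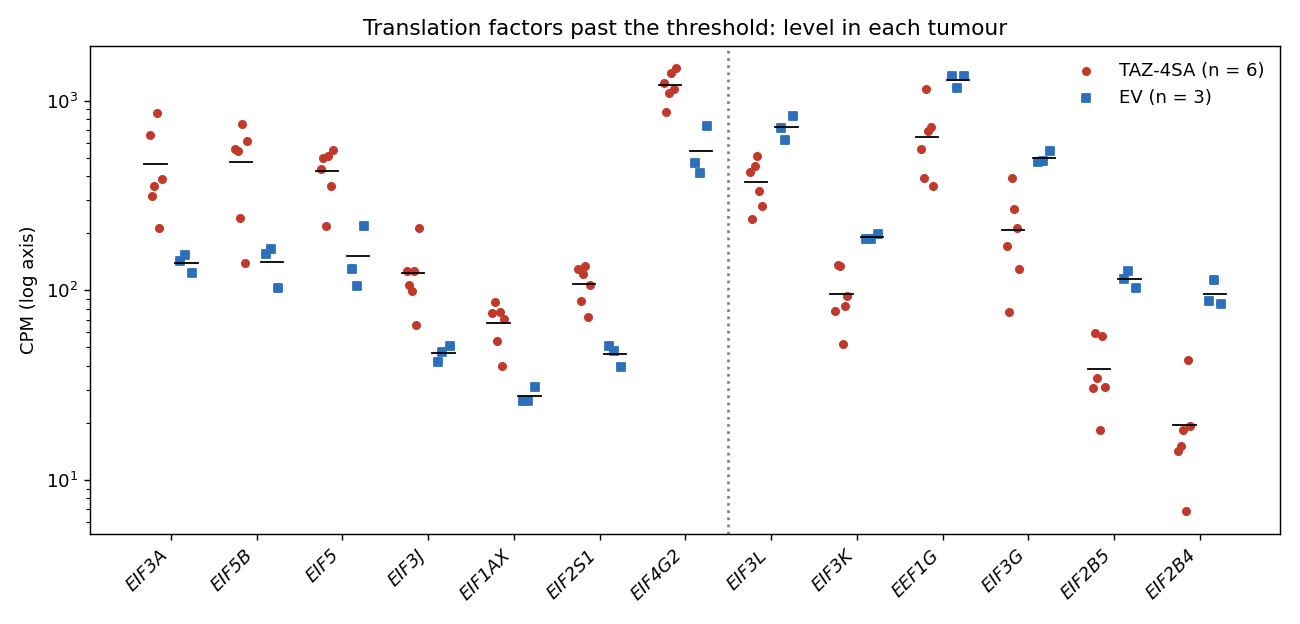
Levels in CPM on a log axis of the 13 translation factor genes that passed the threshold, with TAZ-4SA tumours as red circles (n = 6), EV tumours as blue squares (n = 3) and group means as black lines. Genes left of the dotted line were higher and genes right of it lower in TAZ-4SA, and the groups overlap for EIF5B alone.

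A subunit of eIF2 rose and 2 subunits of its exchange factor eIF2B fell. EIF2S1, the eIF2 alpha subunit that stress kinases phosphorylate, had 72.8, 114 and 134 CPM as lowest, median and highest in TAZ-4SA tumours, against 50.6, 48.0 and 39.4 CPM in EV tumours 1 to 3. No TAZ-4SA tumour fell to the EV range. The log2 fold change was 1.21 ± 0.31 (limma adjusted p = 0.01434; not called without EV tumour 1, 2 or 3, at 0.06017 to 0.07661). EIF2S2 and EIF2S3, the beta and gamma subunits, were not called, at 214 ± 91.8 and 208 ± 38.7 CPM in TAZ-4SA against 126 ± 12.4 and 127 ± 6.30 CPM in EV. Their log2 fold changes were 0.63 and 0.69 (limma adjusted p = 0.2756 and 0.07185), and both were called higher without TAZ-4SA tumour 5 (0.03356 and 0.01706). EIF2A and EIF2D encode factors outside eIF2 that can also deliver tRNA, and neither was called, at log2 fold changes of 0.63 and -0.80.

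Of the 5 eIF2B genes, 2 were lower and 0 higher, beside 13.3% lower and 9.02% higher over all genes tested. EIF2B4, the delta subunit, had 6.83, 16.7 and 42.8 CPM as lowest, median and highest in TAZ-4SA tumours, against 88.3, 114 and 85.2 CPM in EV tumours 1 to 3. The highest TAZ-4SA value, in tumour 5, lay below all EV values. EIF2B4 fell by 2.49 ± 0.53 on the log2 scale (limma adjusted p = 0.005783), the largest log2 fold change in size among the 54 tested, and was not called without EV tumour 2 (0.05209). It lies on chromosome 2 from 27364352 to 27370338. EIF2B5, the catalytic epsilon subunit, had 18.4, 32.8 and 59.3 CPM in the same order in TAZ-4SA tumours, against 115, 127 and 103 CPM in EV tumours, and the groups did not overlap. It fell by 1.68 ± 0.41 on the log2 scale (limma adjusted p = 0.01169), and was not called without EV tumour 1 (0.06256) or EV tumour 2 (0.07344). EIF2B1, the alpha subunit, stood at 119 ± 31.9 CPM in TAZ-4SA tumours, against 116 ± 10.3 CPM in EV tumours. EIF2B2 and EIF2B3, the beta and gamma subunits, had log2 fold changes of -0.71 ± 0.41 and -0.32 ± 0.65. The ratio of EIF2S1 to EIF2B5 within a tumour, chosen after the values were seen and given without a test, was 1.26 to 7.28 in TAZ-4SA and 0.379 to 0.442 in EV.

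The 14 eIF3 genes divided, with 2 higher, 3 lower and 9 not called, and a median log2 fold change of -0.25. Over all genes tested 9.02% were higher and 13.3% lower. EIF3A, the largest subunit and the backbone of the complex, had 213, 371 and 865 CPM as lowest, median and highest in TAZ-4SA tumours, against 142, 154 and 124 CPM in EV tumours 1 to 3. Every TAZ-4SA tumour lay above the EV tumours, with tumour 5 the nearest to them. The log2 fold change was 1.58 ± 0.39 (limma adjusted p = 0.01319), and 0.05494 was the adjusted p without EV tumour 3. EIF3A lies on chromosome 10 from 119033670 to 119080817. EIF3J, a loosely bound subunit that acts at the mRNA channel, had 65.8, 116 and 214 CPM in the same order in TAZ-4SA tumours, against 41.9, 47.0 and 51.2 CPM in EV tumours. The groups did not overlap, and EIF3J rose by a log2 fold change of 1.31 ± 0.36 (limma adjusted p = 0.02115; not called without EV tumour 1, 2 or 3, at 0.05892 to 0.102).

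EIF3G, an RNA-binding subunit that reaches the mRNA channel, had 76.8, 193 and 391 CPM as lowest, median and highest in TAZ-4SA tumours, against 473, 480 and 546 CPM in EV tumours. TAZ-4SA tumour 3 came closest to the EV range and did not enter it. EIF3G fell by 1.44 ± 0.43 on the log2 scale (limma adjusted p = 0.02991). It was not called without EV tumour 1, 2 or 3 or TAZ-4SA tumour 1, 5 or 6 (0.05034 to 0.09991). EIF3K and EIF3L, which bind each other at the edge of the complex and are absent from budding yeast, were both lower. EIF3K had 51.9, 88.2 and 137 CPM in TAZ-4SA tumours, against 187, 186 and 198 CPM in EV tumours, and EIF3L had 238, 377 and 511 CPM against 716, 619 and 834 CPM. Neither gene's groups overlapped. EIF3K fell by 1.06 ± 0.34 on the log2 scale (limma adjusted p = 0.03908; not called without EV tumour 1, 2 or 3 or TAZ-4SA tumour 1, 4, 5 or 6, at 0.05018 to 0.1327). EIF3L fell by 1.00 ± 0.28 on the log2 scale (limma adjusted p = 0.02331; not called without EV tumour 1, 2 or 3, at 0.06111 to 0.1059).

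Of the eIF3 subunits not called, EIF3B, the RNA-binding core subunit, had 466 ± 139 CPM in TAZ-4SA tumours, against 561 ± 93.0 CPM in EV tumours, and EIF3D, which can bind the cap of some mRNAs, had 343 ± 51.9 and 420 ± 72.5 CPM. The log2 fold changes of EIF3E, EIF3F, EIF3H and EIF3I lay between -0.38 and 0.26. EIF3M had a log2 fold change of 0.72 ± 0.40 and was called higher without TAZ-4SA tumour 5 (limma adjusted p = 0.02323). EIF3C and EIF3CL are near-identical copies whose reads cannot be parted with certainty, so they were also added together. Their sum was 7.17, 49.1 and 118 CPM as lowest, median and highest in TAZ-4SA tumours, against 50.4, 71.2 and 93.7 CPM in EV tumours, and the groups overlapped. Subunit proteins of the complex are needed in like numbers, but these values are of RNA, and protein was not measured. Per kilobase of coding sequence the mean levels of EIF3A and EIF3G were 112 and 218 CPM in TAZ-4SA and 33.8 and 521 CPM in EV. The ratio of EIF3A to EIF3G in CPM, again chosen after the values were seen, lay between 0.906 and 4.08 in TAZ-4SA tumours and between 0.227 and 0.320 in EV tumours.

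**Figure D3:**
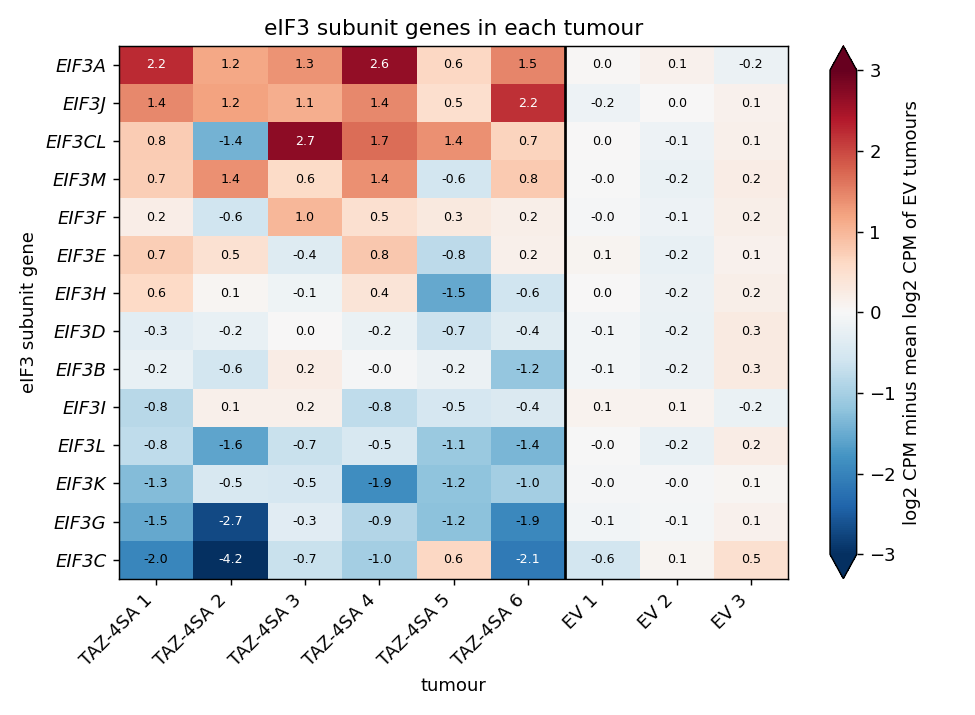
Each cell is the log2 CPM of an eIF3 subunit gene in a tumour minus its mean log2 CPM over the EV tumours, with TAZ-4SA tumours left of the line and EV tumours right of it; colours stop at 3 in either direction. EIF3A and EIF3J are above 0 and EIF3L, EIF3K and EIF3G below 0 in all 6 TAZ-4SA tumours, and EIF3C reaches -4.15 in TAZ-4SA tumour 2.

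Among the factors of the cap and of unwinding, EIF4G2 rose. EIF4G2 encodes DAP5, an eIF4G relative that lacks the eIF4E-binding part and supports initiation that does not use eIF4E. It had 869, 1196 and 1486 CPM as lowest, median and highest in TAZ-4SA tumours, against 471, 418 and 733 CPM in EV tumours 1 to 3. The groups did not overlap, with EV tumour 3 the nearest to the TAZ-4SA range. The log2 fold change was 1.18 ± 0.25 (limma adjusted p = 0.005416), and between 1.02 and 1.42 when 1 tumour was left out. With the tumour number as a block it was 1.01 and EIF4G2 was not called (limma adjusted p = 0.07744). EIF4G2 lies on chromosome 11 from 10797046 to 10808926. EIF4G1 and EIF4G3, the eIF4F scaffolds, were not called, with EIF4G1 at 472 ± 178 CPM in TAZ-4SA tumours, against 712 ± 17.6 CPM in EV tumours and EIF4G3 at 104 ± 22.6 and 74.6 ± 1.09 CPM.

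EIF4E, the cap-binding protein, and EIF4E2, a paralog known as 4EHP that binds caps without eIF4G1 and works in repression, had log2 fold changes of opposite sign and were not called. EIF4E had 21.3, 43.6 and 57.2 CPM as lowest, median and highest in TAZ-4SA tumours, against 15.4, 15.8 and 16.7 CPM in EV tumours. EIF4E2 had 21.4, 50.1 and 84.1 CPM in TAZ-4SA tumours, against 103, 112 and 101 CPM in EV tumours. Neither gene's groups overlapped, yet neither passed the fit, at log2 fold changes of 1.22 ± 0.46 and -1.20 ± 0.44 (limma adjusted p = 0.07395 and 0.06685). EIF4E was called without TAZ-4SA tumour 1 or 5 (0.03322 to 0.04316) and EIF4E2 without TAZ-4SA tumour 1 (0.04538). The helicase gene EIF4A2 stood at 249 ± 80.8 CPM in TAZ-4SA tumours, against 205 ± 33.0 CPM in EV tumours, and EIF4A3, a helicase of the exon junction complex, at 146 ± 49.6 and 185 ± 4.89 CPM. EIF4B and EIF4H, which stimulate the helicase, were not called at log2 fold changes of -0.52 and -0.86, and EIF4H was called lower without TAZ-4SA tumour 3 or 5 (0.04371 to 0.04656). EIF4E3, a further cap-binding paralog, had 2.62 to 14.4 CPM in TAZ-4SA tumours, against 4.83 to 6.58 CPM in EV tumours, and was not called. EIF4A1 was not analysed here.

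The eIF4E-binding proteins showed no call. EIF4EBP1, the best known mTOR target of the family, had 78.0, 88.5 and 108 CPM as lowest, median and highest in TAZ-4SA tumours, against 136, 134 and 147 CPM in EV tumours. All TAZ-4SA values were below all EV values, but at a log2 fold change of -0.64 ± 0.26 it was not called (limma adjusted p = 0.09597), except without TAZ-4SA tumour 5 (0.02724). EIF4EBP2 was at 121 ± 27.9 and 143 ± 7.61 CPM, and EIF4ENIF1, which carries eIF4E into the nucleus, at 49.5 ± 32.6 and 59.2 ± 9.17 CPM. EIF4EBP3 had 0 reads in all 6 TAZ-4SA tumours, against 1.03 to 1.17 CPM in the EV tumours (60 reads in all). With the floor set at 3 reads per library, 0.419 CPM on average, TAZ-4SA was at least 2.63-fold lower. Floors cover counting error only, and EIF4EBP3 missed the filter.

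Of the elongation factor genes, 1 of 7 was called, as lower, beside 13.3% called lower over all genes tested. EEF1A1, which delivers aminoacyl-tRNA and had the highest level of the set per kilobase of coding sequence in both groups, had 2274, 3349 and 5623 CPM as lowest, median and highest in TAZ-4SA tumours, against 5233, 4266 and 5341 CPM in EV tumours. The groups overlapped, and the log2 fold change of -0.48 ± 0.28 was not called (limma adjusted p = 0.2313). EEF1A1 has many processed pseudogenes, so its reads could be split. Per kilobase of coding sequence, EEF1A1 averaged 2682 CPM in TAZ-4SA tumours, against 3569 CPM in EV tumours, while EEF1A2, the copy known from neurons and muscle, averaged 41.8 and 27.9 CPM. EEF2, the translocase, had 1310, 1590 and 4272 CPM in TAZ-4SA tumours, against 4284, 3544 and 4847 CPM in EV tumours. TAZ-4SA tumours 3 and 5, at 4272 and 3171 CPM, stood apart from the other 4, which lay between 1310 and 1603 CPM. The log2 fold change of EEF2 was -1.05 ± 0.36 (limma adjusted p = 0.0523), and it was called lower without TAZ-4SA tumour 3 or tumour 5 (0.009938 to 0.04467). On all 9 tumours EEF2 was also called lower under 5 other settings, namely array weights, limma-voom, median-of-ratios scaling, quantile normalization and a pseudocount of 2 CPM (limma adjusted p = 0.0006361 to 0.04994).

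EEF1G, the gamma subunit of the eEF1B exchange factor, was the elongation factor gene that passed. It had 356, 625 and 1159 CPM as lowest, median and highest in TAZ-4SA tumours, against 1357, 1166 and 1349 CPM in EV tumours. TAZ-4SA tumour 3, at 1159 CPM, came close to EV tumour 2, at 1166 CPM, and the other TAZ-4SA tumours lay at 725 CPM or below. EEF1G fell by 1.11 ± 0.34 on the log2 scale (limma adjusted p = 0.0339), and was not called without EV tumour 1, 2 or 3 or TAZ-4SA tumour 1, 2, 4 or 6 (0.0534 to 0.1165). EEF1B2, the beta subunit, was at 359 ± 137 CPM in TAZ-4SA tumours, against 510 ± 112 CPM in EV tumours and was not called. EEF1D, the delta subunit, was listed at 0 to 33.9 CPM in TAZ-4SA and at 0.814 to 2.01 CPM in EV. In every tumour EEF1D lay far below EEF1B2 and EEF1G, and whether its reads were counted in full was not tested. EEF1E1, a scaffold protein of the tRNA synthetase complex, was at 0 to 41.1 CPM in TAZ-4SA and 2.62 to 7.03 CPM in EV.

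EIF5A, which carries hypusine and relieves stalled ribosomes, had 406 ± 95.2 CPM in TAZ-4SA tumours, against 427 ± 40.6 CPM in EV tumours (log2 fold change -0.10 ± 0.25), and was not called. Added to EIF5AL1, a near-identical copy, it was at 441 ± 98.2 and 440 ± 41.0 CPM. EIF5A2 ranged from 0.123 CPM in TAZ-4SA tumour 3 to 73.9 CPM in TAZ-4SA tumour 2, against 4.08 to 7.93 CPM in EV. EIF6, which keeps the ribosomal subunits apart, had 46.5, 134 and 263 CPM as lowest, median and highest in TAZ-4SA tumours, against 276.5, 291.8 and 264.5 CPM in EV tumours. All TAZ-4SA values were lower than all EV values, though TAZ-4SA tumour 5, at 263.1 CPM, came close to EV tumour 3, at 264.5 CPM, and EIF6 was not called (log2 fold change -1.12 ± 0.46, limma adjusted p = 0.1023).

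Ratios between paralogs are taken within a tumour, and 7 pairs, chosen with earlier results of these data known, were compared. The log2 ratio of EIF4E to EIF4E2 was -1.97 to 1.09 in TAZ-4SA and -2.82 to -2.59 in EV, a difference of 2.41. The log2 ratio of EIF4G1 to EIF4G2 was -1.91 to -0.71 in TAZ-4SA and -0.083 to 0.78 in EV, a difference of -1.87. For EIF4G1 to EIF4G3 the difference was -1.13. In these 3 pairs the groups did not overlap, and each gave p = 0.02381 in the exact two-sided permutation test, the smallest possible, or 0.05556 adjusted over the 7 pairs. EEF1A1 to EEF1A2 had a difference of -0.95 (exact permutation p = 0.04762, adjusted 0.08333). The pairs EIF4EBP1 to EIF4EBP2, EIF5A to EIF5A2 and EIF1 to EIF1B had exact permutation p of 0.2857, 0.5952 and 0.9524. After adjustment 0 of 7 pairs passed 0.05, and 4 of 7 did so before it. With only 3 pairs at the smallest possible p, these could not pass after adjustment over 7.

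**Figure D4:**
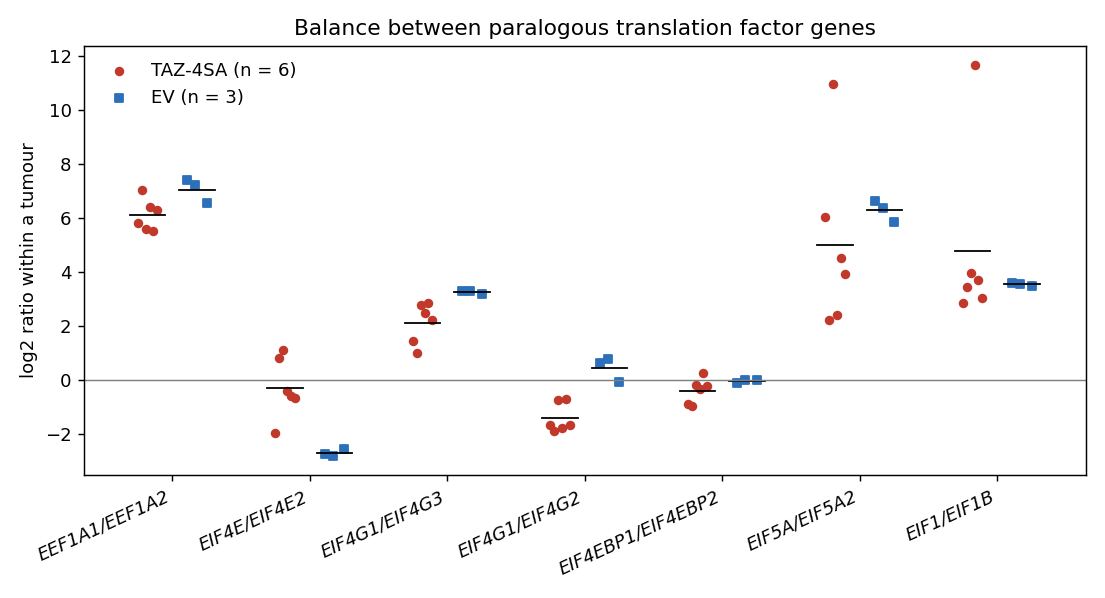
Log2 ratio of the first to the second gene of each paralog pair within a tumour, with TAZ-4SA tumours as red circles (n = 6), EV tumours as blue squares (n = 3) and group means as black lines. The groups are apart for EIF4E/EIF4E2, EIF4G1/EIF4G3 and EIF4G1/EIF4G2, and TAZ-4SA tumour 4 stands at 11.66 for EIF1/EIF1B.

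Genes that work with these factors were read in 6 linked lists, whose counts stand beside 9.02% called higher and 13.3% called lower over all genes tested and have no test of their own. Of 12 partners of initiation, 5 were higher and 0 lower, with a median log2 fold change of 0.76 against -0.85 over all genes. The median over all genes was -0.42 with a pseudocount of 2 CPM, while the lists were read in the main fit only. PABPC1, the poly(A)-binding protein that circularizes mRNA through eIF4G, had 2038 ± 498 CPM in TAZ-4SA tumours, against 740 ± 84.3 CPM in EV tumours (log2 fold change 1.43 ± 0.24, limma adjusted p = 0.001566). The helicase gene DDX3X had 402 ± 101 and 109 ± 39.5 CPM, ABCE1, which recycles ribosomes and binds eIF3, had 176 ± 74.7 and 33.9 ± 8.82 CPM, and LARP4, a poly(A)-binding factor, had 70.1 ± 21.8 and 21.4 ± 0.324 CPM, each called higher. PABPC4 was the fifth, and it was not called without EV tumour 1 or 2 (0.09795 to 0.1173).

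Of 24 regulators of initiation and elongation, 4 were higher and 3 lower, with a median of -0.65, and the lower share is near the 13.3% over all genes. EIF2AK2, the double-stranded RNA-activated eIF2 alpha kinase PKR, had 120 ± 52.5 CPM in TAZ-4SA tumours, against 22.6 ± 6.20 CPM in EV tumours (log2 fold change 2.32 ± 0.42, limma adjusted p = 0.002285). PPP1R15A, known as GADD34, which recruits a phosphatase to eIF2 alpha, had 249 ± 107 and 75.4 ± 47.4 CPM and was not called without EV tumour 1 or 2 (0.07997 to 0.08328). DEPTOR, an mTOR inhibitor, had 0 reads in all TAZ-4SA tumours and 19.9 ± 8.79 CPM in EV, at least 47.6-fold lower by the same floor. GIGYF1, a partner of 4EHP, had 176 ± 71.9 and 606 ± 190 CPM and was lower. EIF2AK4 and PPP1R15B, called higher, and TSC2, called lower, made up the other calls, and each was lost in 3 to 8 of the fits that left out 1 tumour.

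Against the same 9.02% higher and 13.3% lower over all genes, the termination and rescue list had 2 of 11 genes higher and 0 lower, namely the release factor genes GSPT1 (155 ± 18.4 CPM in TAZ-4SA, 78.9 ± 10.5 CPM in EV) and ETF1 (328 ± 52.6 and 190 ± 46.6 CPM). Both were lost in fits that left out 1 tumour, GSPT1 without any EV tumour (0.06728 to 0.09159) and ETF1 without EV tumour 1 or 2 or TAZ-4SA tumour 1, 4 or 6 (0.05472 to 0.2007). Of 9 enzymes that make hypusine on eIF5A or diphthamide on eEF2, 0 were higher and 2 lower, DPH2 (74.4 ± 33.3 and 192 ± 13.02 CPM) and DPH7 (27.4 ± 17.97 and 78.7 ± 6.23 CPM). DPH2 was lost without EV tumour 1, 2 or 3 (0.07286 to 0.08202), and DPH7 without these or TAZ-4SA tumour 1, 2, 4 or 6 (0.05051 to 0.1531). None of 5 elongation factor methyltransferases was called. Of 9 mitochondrial translation factors 1 was lower, the mitochondrial elongation factor gene TUFM, at 144 ± 89.9 CPM in TAZ-4SA tumours, against 471 ± 16.9 CPM in EV tumours (log2 fold change -1.98 ± 0.50, limma adjusted p = 0.01471; not called without EV tumour 1 or 2, at 0.05209 to 0.0531).

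Fold changes differed between classes of coding length, though not in steps of 1 direction. Over all genes the median log2 fold change was -0.85 for 2565 genes with under 750 coding bases, -0.96 for 4647 with 750 to 1500, -0.71 for 4386 with 1500 to 3000 and -0.34 for 2020 with over 3000. For the factors it was -0.12 for 17 genes, 0.20 for 20, -0.57 for 13 and 1.00 for 4 in the same classes. EIF3A, EIF5B, EIF4G1 and EIF4G3 are the 4 longest. With a smooth trend on coding length subtracted from each tumour, an alternative added after the data were seen that also brought the median of all genes to -0.03, 13 factors were higher and 1, EIF2B4, was lower. EIF3G, EIF3K, EIF3L and EEF1G were then at log2 fold changes of -0.47, -0.13, -0.24 and -0.22 and EIF2B5 at -1.06 (limma adjusted p = 0.1525), while the 7 rises were still called. Whether length or RNA quality set any of these calls was not tested.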

How the data were processed

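The authors deposited log2 CPM values per gene; the unit was read from the values. HISAT2 and GRCh38 are among the names in the submitters' processing notes without roles, and no source used here gives the counter, the annotation or any separation of mouse reads. The kits named in the labels' protocols do not keep strand. The lowest value, -2.786, equals a prior of 0.145 CPM; with it removed, 100.0% of values under 5000 reads were whole within 0.1 read, which gave reads per gene.

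The 55 members, the role groups, pairs and lists were chosen with earlier results of these data known. The deposited log2 values of 15578 genes, those averaging 1 CPM or more with the prior, were fitted in limma 3.58.1 under R 4.3.3 (trend and robust options on), with Benjamini-Hochberg adjustment over all of them. Fold changes are differences of mean log2(CPM + 0.145), so tumours at or near 0 reads weigh heavily and fold changes of low genes can be over- or understated. EIF1B had a ratio of mean CPM of 0.781 and a log2 fold change of -1.35, and EEF1D had 9.45 and 1.53. The fit was also run on simulated reads with the same spread in both groups, so that run cannot check the unequal spread of these tumours. Genes to name were the called members, the 10 of highest mean CPM, both genes of each pair, and up to 4 called genes per list; the remaining members, EIF2AK4, PPP1R15B, PABPC4 and TSC2 were added to account for every member and call. Coding lengths were medians over APPRIS principal transcripts in GENCODE 29, and coordinates and start sites came from RefSeq (GRCh38.p14). Exact permutation p-values are 2 times the smaller tail. A planned pair with EIF4A1, which was not analysed here, was left out, and a planned quasi-likelihood count test was not run. The deposited values are log2 and not counts, though limma-voom was run on the recovered reads.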

Additional observations from a re-analysis of the deposited data

Results flagged for a closer look

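Each gene and pair ratio was checked for a TAZ-4SA tumour whose gap to the others exceeded Dixon's 95% limit, which chance exceeds in about 1 of 20 groups; 61 were checked and 2 stood out. EIF1B was at 0.108 CPM in TAZ-4SA tumour 4, far below the other 5. The log2 ratio of EIF1 to EIF1B was 11.66 in the same tumour, which is the same low EIF1B value.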

How the results depend on the processing

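Calls rested on the 3 EV tumours. With 1 tumour left out, 1651 to 4275 genes were called over all tested, against 3484, and 2 to 11 factors were higher and 0 to 8 lower, with the 0 lower reached without EV tumour 2. The log2 difference of WWTR1 was 1.34 to 1.55 in these fits, and 1.45 without TAZ-4SA tumours 2, 3 and 4, where the exact permutation test cannot go below 0.1. With TAZ-4SA tumours 5 and 6 set aside, the libraries of fewest reads, 10 factors were higher and 3 lower. Of these, 9 were calls of the main fit and 4 were new. EIF3G, EIF3K, EIF3L and EEF1G were not called there (limma adjusted p = 0.06499 to 0.1033). EIF4EBP1 was newly lower (0.02359), and EIF2S2, EIF2S3 and EIF3M were newly higher (0.00749 to 0.04553). Array weights called 8161 genes, 12 factors higher and 16 lower; limma-voom on the recovered reads called 10 lower; removal of the coding-length trend called 13 higher and 1 lower. For same-numbered tumours the correlations of deviations were 0.031, 0.004 and -0.047, which cannot settle whether they were paired. The replicate block, with the tumour number as a block, left 2 factors higher and 1 lower, all called in the main comparison. In it TAZ-4SA tumours 4 to 6 have no EV tumour of their number and do not inform the contrast. EIF4G2 was not called with it (limma adjusted p = 0.07744). The other planned settings, among them pseudocounts of 0.1 and 2 CPM and median-of-ratios scaling, kept these counts within 1.5 times, and no called factor turned direction under any setting. Quantile normalization gave a median of all genes of -0.15 in place of -0.85 and 1920 higher and 1624 lower calls in place of 1405 and 2079, so the share of higher calls among all calls depends on the setting. It was 1507 higher and 3384 lower without a filter, 1392 and 967 with a minimum mean of 10 CPM, 1291 and 3646 under limma-voom and 2531 and 5630 under array weights, and the 13.3% called lower over all genes moves with it. Of the factors not called, EEF1A1, EEF2, EIF4E, EIF4E2, EIF4EBP1 and EIF4G1 were called under 1 to 5 other settings on all 9 tumours. EIF2S3, EIF4H and EIF6 were also called under limma-voom (limma adjusted p = 0.04059, 0.03764 and 0.04374), and EIF2S3 under quantile normalization (0.04232). With the length trend removed, EIF2S3, EIF2A, EIF2S2, EIF3F and EIF3M were called higher as well. Array weights called 15 factors that the main fit did not, and not all of them are named here. The planned quasi-likelihood count test was not run.

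Signs turned only for factors not called. After the length trend was removed, log2 fold changes were 0.38 for EEF1A1, 0.66 for EIF1, 0.19 for EIF4B, 0.23 for EIF3B, 0.77 for EIF5A, 0.16 for EIF4EBP1 and 0.53 for EIF4EBP2. They were also 0.97 for EIF2B1, 0.24 for EIF2B2, 0.55 for EIF2B3, 0.49 for EIF3D and 0.75 for EIF3H. EIF3I stood at 0.59, EIF4A3 at 0.50, EEF1B2 at 0.36 and EIF4H at 0.097 under the same setting. For the other settings not every turn is listed, and EIF2B1, for example, was 0.10 under quantile normalization. EIF1 was 0.24 under array weights, 0.10 under quantile normalization and -0.31 to 0.24 with 1 tumour left out. EIF5A was 0.078 under quantile normalization and 0.020 with the replicate block, and EIF5A2 -0.097 with it. EIF1B was 0.27 without TAZ-4SA tumours 2, 3 and 4, and the log2 ratio of EIF1 to EIF1B differed by -0.36 there and by -0.15 to 1.61 with 1 tumour left out. The cause was not tested. No pair passed under any setting run, but in some of them none could. The exact permutation test on a pair cannot go below 0.07143 without any 1 EV tumour. Without TAZ-4SA tumours 2, 3 and 4 it cannot go below 0.1.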
